A study of Mus musculus with 6 samples.

Results

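The 14-3-3 family genes Ywhaz, Ywhab, Ywhae, Ywhag, Ywhah and Ywhaq and an unnamed feature, GSMG0043257, were followed in RNA from the cortex of mouse embryos at embryonic day 18.5 (E18.5). The 6 genes were taken by their symbols and GSMG0043257 by its identifier, which makes 7 of the 59484 features listed by the authors. The unnamed feature was picked because its values rise in the mutant, so its genotype difference is given below as a description and was not tested. It had been named a Ywhaz pseudogene locus. The annotation bears this out only in part, since 43 of its 407 bases lie on an annotated Ywhaz copy and the other 364 bases do not. The sequence of these 364 bases was not compared with Ywhaz, so their origin is not known.

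The libraries came from the whole cortex of 3 wild-type embryos and of 3 embryos whose genotype label is Sam68:Slm2 ko, that is, a double knockout (dKO). All mice were on a C57BL/6 background, and Sam68 and SLM2 are related RNA-binding proteins encoded by Khdrbs1 and Khdrbs3. PolyA+ RNA was read as 150 bp pairs from a stranded kit. The values are normalized counts, that is, reads assigned to a feature divided by a size factor of the library. The dKO line was bred by intercrossing mice heterozygous for the Sam68 deletion and homozygous for that of Slm2. No pup of this cross is wild-type for Slm2, so the wild-type embryos were not littermates of dKO embryos bred in this way, and genotype and litter cannot be told apart. The p-values measure the spread between these 3 and 3 libraries only.

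The libraries held between 31837922 and 40896541 reads on the listed features. Khdrbs1 fell from 8213 ± 232 to 152 ± 41.5 normalized counts and Khdrbs3 from 13841 ± 1252 to 6652 ± 366 (mean ± SD, n = 3 per genotype), with changes of -5.78 and -1.05 on the log2 scale (limma adjusted p = 1.08e-07 and 0.000855). For Khdrbs3 the adjusted p was 0.0891 with limma's trend and robust options off. These are RNA values, and the authors reported from Western blots that both proteins were absent from the cortex of dKO mice after birth. Wild-type 1 and dKO 1 stood apart from the other libraries of their own genotype. For this, each log2 value was taken as its deviation from the mean of its genotype. The deviations of wild-type 1 and dKO 1 rose with transcript length (Spearman correlation of 0.33 and 0.37). The 13978 genes used are not independent replicates. In the other 4 libraries the correlation lay between -0.25 and -0.12. Each genotype held 1 such library. Deviations within a genotype depend on each other, and a length trend between genotypes cannot be seen in them. All 8 cortical projection neuron and forebrain markers were measured, with summed normalized counts of 96674-128380 in the wild-type libraries and 107946-141000 in the dKO libraries. Their median log2 change was 0.24, 7 of 8 changes were above 0, 3 had an unadjusted p under 0.05 and 0 an adjusted p under 0.05. Over the 18970 features tested the median was 0.00, with 9603 changes above and 9367 below 0. Of these features, 11.5% had an unadjusted p under 0.05. The summed level of the choroid plexus markers was low, between 41.7 and 160 normalized counts in all 6 libraries. The 7 endothelial markers summed to 5161-6547 in wild-type and 4854-5541 in dKO libraries, and the 6 meningeal fibroblast markers to 589-1602 and 565-631. Every tested member of these endothelial and fibroblast lists had a negative log2 change, 0 of them passed an adjusted p of 0.05, and the part of these neurons, endothelial cells and fibroblasts in the values below was not tested. In bulk cortex, fewer cells of a type and less RNA per cell cannot be told apart.

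The 14-3-3 proteins are small acidic adaptors that form dimers and bind client proteins at phosphorylated serine or threonine sites. Binding can hold a client in the cytoplasm, block or stabilise its activity, or bridge it to a partner. They are abundant in brain, where they take part in kinase signalling, cell cycle control and neuronal migration. Ywhaz, Ywhab, Ywhae, Ywhag, Ywhah and Ywhaq encode the zeta, beta, epsilon, gamma, eta and theta proteins, and Sfn encodes sigma, a form best known from epithelia. In human, YWHAE lies within the chromosomal region lost in Miller-Dieker lissencephaly and its product binds the migration factor NDEL1. Processed pseudogenes are copies of an mRNA that were written back into the genome, so they can share long stretches of sequence with the gene they came from.

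The table places the genes at chr15:36770257-36796929 (Ywhaz), chr2:163995134-164018587 (Ywhab), chr11:75732887-75765848 (Ywhae), chr5:135908379-135934641 (Ywhag), chr5:33018816-33027966 (Ywhah) and chr12:21390071-21417588 (Ywhaq), so that Ywhab and GSMG0043257 are on the same chromosome but far apart. How far the family can be told apart by its reads depends on sequence, so the sequences that bear on this are shown first. They are those of GENCODE M21 on GRCm38 (mm10). Gm14287, the annotated processed pseudogene touched by GSMG0043257, lies at chr2:157528869-157528985 on the minus strand. The capitals mark the bases that are identical to the Ywhaz mRNA.
Gm14287: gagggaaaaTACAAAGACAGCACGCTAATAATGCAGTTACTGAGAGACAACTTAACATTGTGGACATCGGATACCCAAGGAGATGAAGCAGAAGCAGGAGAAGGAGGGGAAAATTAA

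Of its 117 bases, the last 108 matched bases 1233 to 1340 of the Ywhaz-201 transcript without a mismatch or gap. This is the end of the Ywhaz coding sequence up to and including the stop codon. The match crosses the boundary between the last 2 exons of Ywhaz-201, whose final exon starts at base 1281. The 43 bases within GSMG0043257 correspond to coding bases 696 to 738, the last of the 738 coding bases.

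Another copy of Ywhaz, Gm4202 (chr3:92689426-92690158, plus strand), was nearly complete. Its 733 bases aligned to the Ywhaz mRNA from the second coding base at 99.9% identity with 0 mismatches and 1 gap, and 440 of its 584 windows of 150 bases occur verbatim in that mRNA. Gm2423 (chr13:13232161-13232893, minus strand) is a copy of Ywhaq at 99.7% identity, and 307 of its 584 such windows occur verbatim in the Ywhaq mRNA. The family genes themselves differ far more. Below, the same 48-base coding stretch is shown for the 6 genes and these copies, to set the divergence of the genes beside that of the copies. Capitals mark bases that differ from Ywhaz.
Ywhaz: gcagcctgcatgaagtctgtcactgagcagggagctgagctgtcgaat
Gm4202: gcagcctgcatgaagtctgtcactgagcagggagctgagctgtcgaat
Ywhaq: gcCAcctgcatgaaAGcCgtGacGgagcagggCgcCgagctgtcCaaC
Gm2423: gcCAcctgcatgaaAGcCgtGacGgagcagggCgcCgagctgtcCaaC
Ywhab: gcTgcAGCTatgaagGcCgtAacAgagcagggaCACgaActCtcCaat
Ywhag: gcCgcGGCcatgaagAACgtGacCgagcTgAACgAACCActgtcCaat
Ywhah: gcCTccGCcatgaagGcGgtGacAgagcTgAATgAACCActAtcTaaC
Ywhae: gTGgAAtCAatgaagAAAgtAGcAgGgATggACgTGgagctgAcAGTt

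The Ywhaz stretch is coding exon sequence at chr15:36790864-36790911 on the minus strand, and the Gm4202 stretch lies at chr3:92689491-92689538 on the plus strand. The Ywhaq stretch is exonic at chr12:21416978-21417025 and the Gm2423 stretch lies at chr13:13232782-13232829, both on the minus strand. Over these 48 bases Gm4202 had 0 differences from Ywhaz and Gm2423 had 0 from Ywhaq, whereas Ywhaq differed from Ywhaz at 11 bases, Ywhab at 15, Ywhag at 19, Ywhah at 20 and Ywhae at 23. Over the whole coding sequence, identity to Ywhaz was 75.1% for Ywhab, 74.1% for Ywhaq, 72.4% for Ywhah, 69.4% for Ywhag and 65.2% for Ywhae. The longest identical run between Ywhaz and another family gene was 26 bases, shared with Ywhab and with Ywhaq. The sources used here do not say how reads that match several places were counted. Values of a gene and of its near-identical copies are therefore uncertain as separate values, and Ywhaz and Ywhaq are the genes to which this applies most.

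The 6 family genes were each read 9765 to 74898 times per library in the E18.5 cortex. To compare levels between genes, normalized counts were divided by the length of the merged exons of each gene in kilobases. On this per-kilobase scale the wild-type order was Ywhae at 17994 ± 342, Ywhag at 11225 ± 817, Ywhah at 6067 ± 457, Ywhaz at 4195 ± 289, Ywhaq at 4114 ± 77.7 and Ywhab at 3379 ± 123 (mean ± SD, n = 3). Ywhae was thus 1.60 times as high as Ywhag, and Ywhag 1.85 times as high as Ywhah. Each of these steps was free of overlap between the wild-type libraries, except for that between Ywhaz and Ywhaq, whose ratio was 1.02 and whose libraries overlapped. Both also changed places when counts were divided by the longest coding transcript, at 5254 for Ywhaz and 5732 for Ywhaq. In dKO libraries Ywhaz (3706 ± 387) stood below Ywhaq (4346 ± 53.0) on merged exons, and the other 4 genes kept their places. Sfn was far below the rest, with 51.2 ± 11.1 in wild-type libraries, so that Ywhab, the lowest of the 6, was 66.0 times as high.

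**Figure D1:**
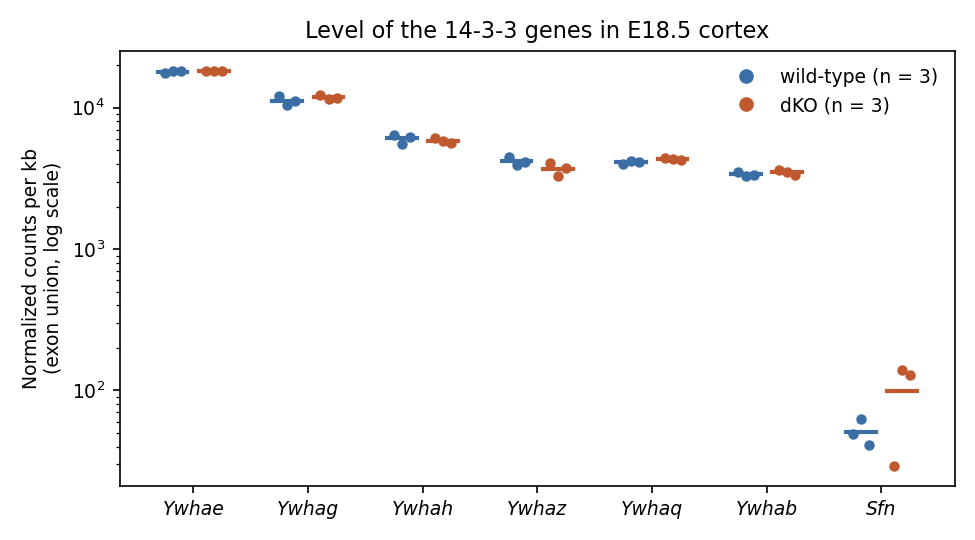
Normalized counts per kilobase of merged exons (log scale) of the 6 family genes and Sfn in each wild-type (blue) and dKO (orange) library, with points for libraries and horizontal lines for group means (n = 3). Ywhae (17994 in wild-type) leads and Sfn (51.2) is lowest.

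Across the 6 genes the summed normalized count was 178266, 164940 and 172033 in wild-type and 179543, 170617 and 171875 in dKO libraries. The means of 171746 ± 6668 and 174012 ± 4832 differed by 1.32%, and the libraries overlapped. As a percentage of all normalized counts of a library the sum was 0.488 ± 0.019% in wild-type and 0.473 ± 0.010% in dKO libraries, a difference in the opposite direction, so no direction is given for the family sum. Within the per-kilobase sum of the family, Ywhae made up 38.3 ± 1.67% in wild-type and 38.5 ± 1.04% in dKO, and Ywhag 23.9 ± 1.10% and 24.9 ± 0.45%. The share of Ywhaz was 8.92 ± 0.39% in wild-type and 7.80 ± 0.68% in dKO libraries.

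The comparison of genotypes asked whether the family changes when both RNA-binding proteins are lost. It was made with limma on log2(normalized count + 1) for the 18970 features whose mean reached 10 normalized counts, with Benjamini-Hochberg adjustment. The added 1 makes the fold changes of weakly expressed features too small. None of the 6 family genes passed an adjusted p of 0.05 (0 of 6, against 0.0527% of all features tested called higher and 0.0474% called lower in dKO), and 0 of 6 had an unadjusted p under 0.05, against 11.5% of all features. On the recovered reads, edgeR also called 0 of 6, against 0.0527% of all features called higher and 0.0474% called lower, and DESeq2 called 0 of 6, against 1.06%. The median log2 change of the 6 genes was 0.03, beside 0.00 over all features tested.

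Ywhaz had the lowest log2 change of the family. It gave 18599, 16301 and 16922 normalized counts in the wild-type libraries and 16727, 13567 and 15491 in dKO libraries. The groups overlapped, since dKO 1 lay above wild-type 2, and the lowest value was that of dKO 2. The dKO mean was 11.6% lower, with a log2 change of -0.18 (SE 0.09, 95% interval -0.39 to 0.02, limma adjusted p = 0.483). The interval reaches from a fold of 0.765 to one of 1.02. With single libraries left out, the log2 change was between -0.25 (without dKO 1) and -0.10 (without dKO 2), and the adjusted p between 0.312 and 0.790.

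Ywhaq was the only one of the 6 whose genotypes did not overlap, a pattern seen with dKO higher in 7.89% of all features tested. It had 12336, 12804 and 12639 normalized counts in wild-type libraries and 13476, 13278 and 13154 in dKO libraries. All 3 dKO values were thus above the highest wild-type value, by a small margin. The log2 change was 0.08 (SE 0.07, 95% interval -0.07 to 0.23, limma adjusted p = 0.667).

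Ywhab, the gene most like Ywhaz in sequence, gave 11874, 11051 and 11355 normalized counts in wild-type libraries and 12199, 11888 and 11326 in dKO libraries. The values overlapped and the log2 change was 0.05 (SE 0.07, limma adjusted p = 0.822).

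Ywhag and Ywhah have only 2 exons in their main transcript and encode the gamma and eta proteins. Ywhag was measured at 66463, 57522 and 61232 normalized counts in wild-type libraries and at 67971, 63171 and 63945 in dKO libraries (log2 change 0.08, SE 0.08, limma adjusted p = 0.715). Ywhah was measured at 23799, 20587 and 23127 in wild-type and at 22606, 21628 and 20976 in dKO libraries (log2 change -0.05, SE 0.08, limma adjusted p = 0.833). In both genes the highest wild-type library was wild-type 1 and the genotypes overlapped.

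Ywhae, like Ywhaq, varied little between libraries. Its values were 45195, 46674 and 46758 normalized counts in wild-type libraries and 46565, 47085 and 46983 in dKO libraries, a coefficient of variation of 1.90% and 0.588%. The log2 change was 0.02 (SE 0.07, 95% interval -0.12 to 0.17, limma adjusted p = 0.924), and dKO 1 lay within the wild-type range. The small positive changes of Ywhab, Ywhaq, Ywhag and Ywhae turned to -0.04, -0.01, -0.01 and -0.04 under quantile normalization, so no direction is given for them.

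**Figure D2:**
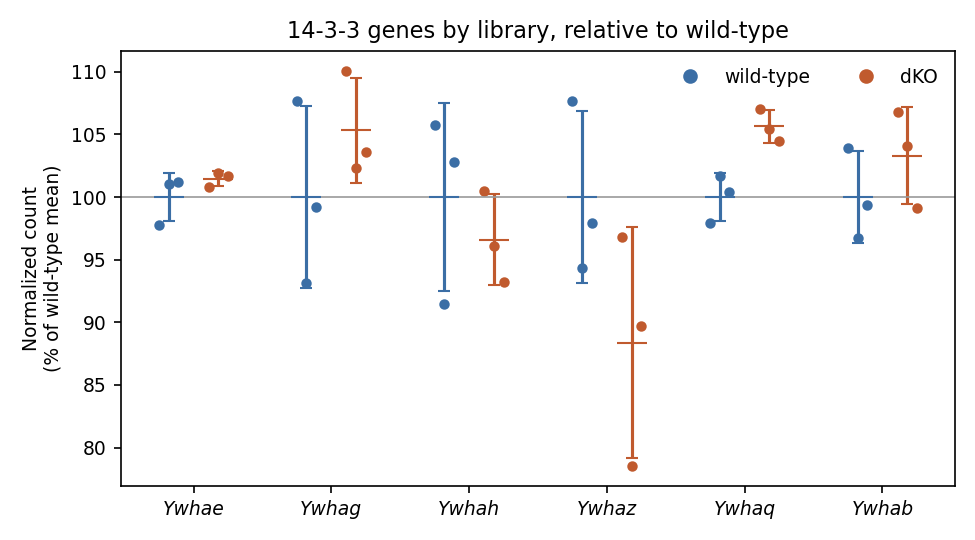
Normalized counts of the 6 family genes as a percentage of the wild-type mean of each gene, on an axis that does not start at 0, with points for the 3 wild-type (blue) and 3 dKO (orange) libraries, horizontal lines for means and bars for 1 SD. The dKO mean of Ywhaz lies at 88.4% with overlapping points, and Ywhaq, at 106%, is the only gene whose dKO points all lie above its wild-type points.

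Sfn was lower and more variable than the 6 genes. Its normalized counts were 78.9, 102 and 66.6 in wild-type and 47.2, 224 and 206 in dKO libraries. dKO 2 and dKO 3 were above all wild-type values, and dKO 1 was below them. The log2 change was 0.67 (SE 0.54, limma adjusted p = 0.649). It ranged from 0.28 to 1.39 when each library was left out in turn, with 1.39 and an adjusted p of 0.0608 without dKO 1.

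The features on the Ywhaz copies are described next. GSMG0043257 (chr2:157528505-157528911) held 1344, 1349 and 1232 normalized counts in wild-type libraries and 2938, 4798 and 3024 in dKO libraries. The lowest dKO value was 2.18 times the highest wild-type value, and dKO 2 stood well above dKO 1 and dKO 3. The means were 1308 ± 66.3 and 3586 ± 1050, a log2 change of 1.42, which is the property for which the feature was chosen. This change lay between 1.19, without dKO 2, and 1.54 when each library was left out.

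Behind these values were 1256 to 1413 recovered reads per wild-type library and 2607 to 4588 per dKO library, so the counting error was small beside the spread among dKO libraries. Set against Ywhaz, GSMG0043257 amounted to 7.23%, 8.28% and 7.28% of the Ywhaz normalized count in wild-type and to 17.6%, 35.4% and 19.5% in dKO libraries. The highest of these percentages was in dKO 2, the library with the lowest Ywhaz value.

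Its named neighbours were looked at to see what else was measured around the feature. Blcap, a gene for a small membrane protein, is 27451 bases away, Nnat, an imprinted gene active in developing brain that lies within Blcap, 31167 bases, and Src, the non-receptor tyrosine kinase, 56667 bases. Their log2 changes were -0.05 (SE 0.08), 0.07 (SE 0.14) and 0.06 (SE 0.07), with limma adjusted p of 0.823, 0.864 and 0.771. The wild-type values of Src spanned 3263 to 3431 normalized counts and its dKO values 3501 to 3515, without overlap. Such a separation with dKO higher was seen in 7.89% of all features tested. Blcap (4417 to 5327) and Nnat (59222 to 89144) overlapped. Under quantile normalization the change of Src was 0.00 and that of Nnat -0.01, so no direction is given for them. An unnamed feature 15355 bases away, GSMG0067388, held 11.4 to 14.3 normalized counts in wild-type and 4.64 to 9.08 in dKO libraries. A separation with dKO lower was seen in 8.48% of all features tested, and the mean of GSMG0067388, 10.1, is close to the filter of 10.

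The features over annotated 14-3-3 pseudogenes were then collected by sequence. Of the annotated pseudogene transcripts, 15 aligned to a 14-3-3 mRNA over at least 200 bases at 85% identity or more, which the short Gm14287 did not. Ywhaq had 9 of these copies, Sfn 3, Ywhah 2 and Ywhaz 1, and Ywhab, Ywhae and Ywhag had 0. A total of 9 features covered 8 of the 15 copies, Gm4202 being under 2 of them, and the remaining copies were under no feature. Of the 9 features, 6 had a mean of at least 10. Of these 6, GSMG0024608 alone passed an adjusted p of 0.05, against 0.0527% of all features tested called higher in dKO. The other 3 features had means of 0.00, 1.33 and 2.09 normalized counts and were not tested.

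GSMG0024608 (chr3:92689405-92689576) covers the first 151 bases of Gm4202. These align to Ywhaz from its second coding base, with the 1 gap of the copy among them, and hold an identical run of 148. GSMG0024608 held 3372, 3038 and 3263 normalized counts in wild-type libraries and 5748, 7528 and 5645 in dKO libraries. All dKO libraries were above all wild-type libraries, a pattern seen in 7.89% of all features tested, and dKO 2 was again the highest. The log2 change was 0.96 (SE 0.11, 95% interval 0.71 to 1.20, limma adjusted p = 0.0113).

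The call held with each library left out in turn, with log2 changes of 0.82 to 1.03 and adjusted p of 0.0124 to 0.0452, and with edgeR (0.0158) and DESeq2 (7.13e-12). It was lost at an adjusted p of 0.232 when limma was run without its trend and robust options and of 0.0669 when wild-type 1 and dKO 1 were both left out, where the log2 change was 1.05. Since the feature shares its sequence with Ywhaz and resembles the feature chosen for its rise, this call is not independent evidence of the pattern in GSMG0043257.

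GSMG0067662 (chr3:92689292-92691193) spans the whole of Gm4202 and contains GSMG0024608, but was listed with far lower values. These were 807, 709 and 826 normalized counts in wild-type libraries and 936, 935 and 833 in dKO libraries. The genotypes did not overlap, a pattern seen with dKO higher in 7.89% of all features tested, yet dKO 3 was only just above wild-type 3. The log2 change was 0.21 (SE 0.10, limma adjusted p = 0.477). The 2 features over the same copy thus differed in level and in the size of their change. How the authors divided reads between overlapping features is not given in the sources used here.

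**Figure D3:**
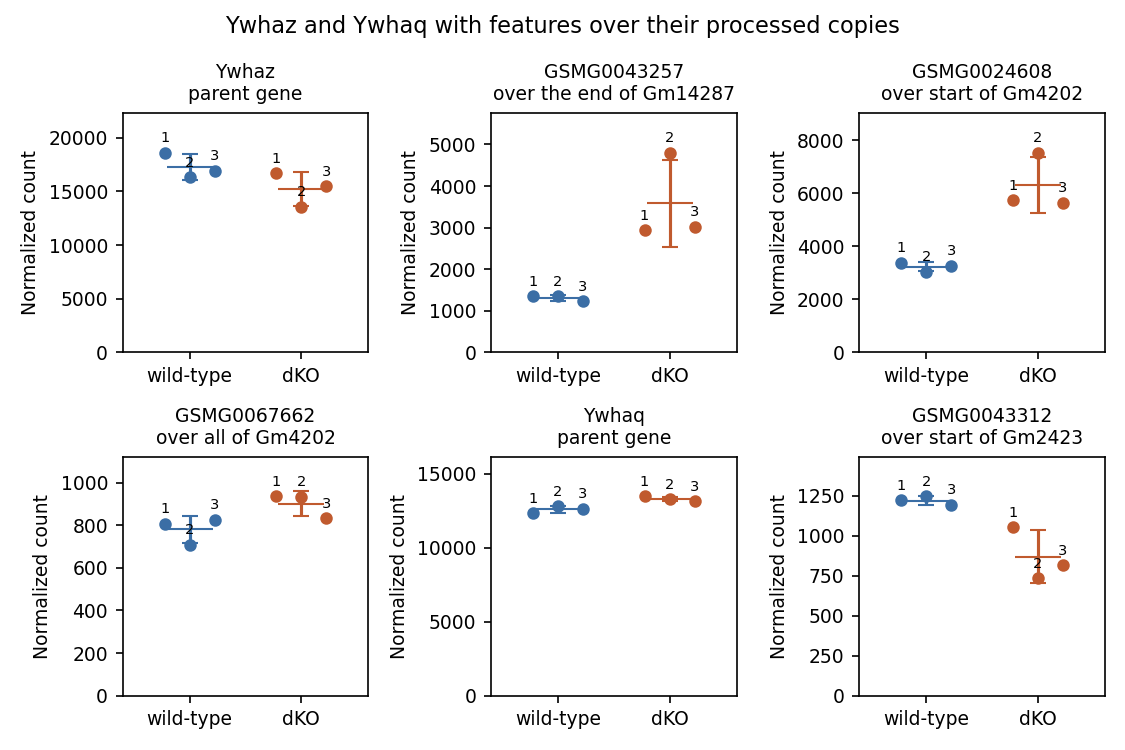
Normalized counts, 1 panel per gene or feature with its own axis from 0, of Ywhaz, Ywhaq and 4 features over their copies in the 3 wild-type and 3 dKO libraries, numbered by replicate, with horizontal lines for means and bars for 1 SD. GSMG0043257 (means 1308 and 3586) and GSMG0024608 (3224 and 6307) are higher in all dKO libraries with dKO 2 on top, while GSMG0043312 (1221 and 869) is lower in all dKO libraries.

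Ywhaz and its copies were next set side by side in each library. Summed over Ywhaz, GSMG0043257 and GSMG0024608, the normalized count was 23315, 20687 and 21417 in wild-type and 25413, 25894 and 24160 in dKO libraries. The dKO mean of this sum was 3349 normalized counts or 15.4% above that of wild-type, whereas the difference was -2012 for Ywhaz alone and 5361 for the 2 copy features together. GSMG0043257 and GSMG0024608 made up 20.8 ± 0.51% of the sum in wild-type and 39.2 ± 7.31% in dKO libraries. Only 43 of the 407 bases of GSMG0043257 lie on the annotated copy. How much of its count comes from Ywhaz-like sequence is therefore not known. With 47.6%, dKO 2 had the largest such share, beside 34.2% in dKO 1 and 35.9% in dKO 3. With GSMG0067662 added, the sum was 22587 ± 1395 in wild-type and 26056 ± 952 in dKO libraries. As GSMG0043257 was chosen for its rise, these sums are descriptions without a test.

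**Figure D4:**
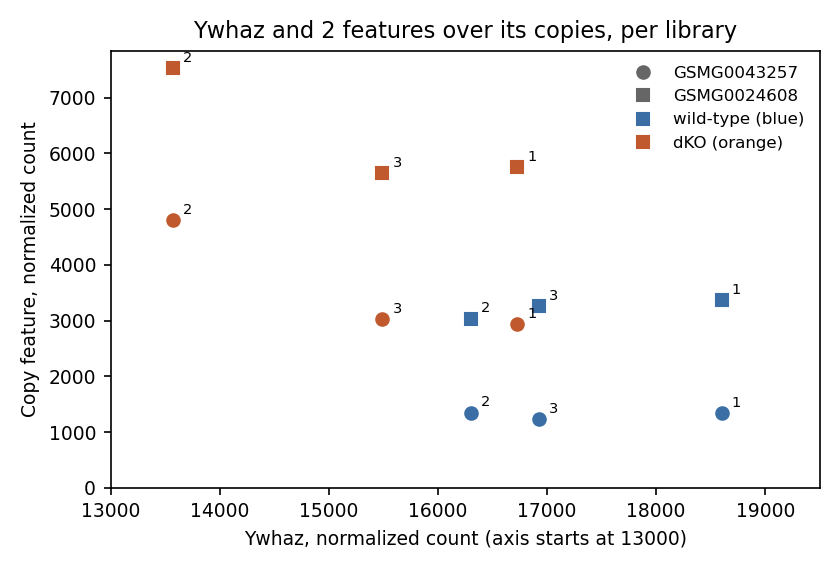
Normalized counts of GSMG0043257 (circles) and GSMG0024608 (squares) on the y axis against those of Ywhaz on the x axis, which does not start at 0, in the 3 wild-type (blue) and 3 dKO (orange) libraries, numbered by replicate. The dKO 2 library, with the lowest Ywhaz value (13567), has the highest values of both features (4798 and 7528).

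Across the 6 libraries Pearson's r on log2(normalized count + 1) with Ywhaz was -0.80 for GSMG0043257 and -0.75 for GSMG0024608. For GSMG0067662 it was -0.41. Among the other family genes, none of which is a copy of Ywhaz, the same measure ranged widely. It was -0.80 for Ywhae, -0.67 for Ywhaq, 0.02 for Ywhab, 0.22 for Ywhag and 0.62 for Ywhah. These values are descriptions, since the libraries fall into 2 genotypes and share their size factors.

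Features over copies of Ywhaq were measured in the same way. GSMG0043312 (chr13:13232745-13232921) covers the first 149 bases of Gm2423, all of them verbatim in the Ywhaq mRNA. It held 1222, 1247 and 1194 normalized counts in wild-type libraries and 1055, 736 and 815 in dKO libraries. All dKO values were below all wild-type values, a pattern with dKO lower in 8.48% of all features tested, and dKO 2 was the lowest. The log2 change was -0.51 (SE 0.13, 95% interval -0.79 to -0.22) and did not pass with limma (adjusted p = 0.265), but did with DESeq2 (adjusted p = 0.0473) and with limma without dKO 1 (log2 change -0.66, adjusted p = 0.0436). As a percentage of the Ywhaq normalized count it was 9.70 ± 0.23% in wild-type and 6.53 ± 1.18% in dKO libraries.

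The features over the remaining copies had 95% intervals that include 0. GSMG0040217 (chr9:119159160-119164122), which contains the Ywhaq copy Gm10608, held 187 ± 25.6 normalized counts in wild-type libraries and 227 ± 34.6 in dKO libraries (log2 change 0.28, SE 0.18, limma adjusted p = 0.565). Cdk5rap2, a centrosomal protein gene, contains Ywhaq-ps3 and had a log2 change of 0.13 (SE 0.11, limma adjusted p = 0.652). Rsf1, a chromatin remodelling gene, contains Ywhaq-ps1, whose best match by alignment was Sfn, and had a log2 change of 0.02 (SE 0.14, limma adjusted p = 0.96). In both, the copy is a small part of a much longer host gene. Of the 589 windows of 150 bases of Ywhaq-ps3, 309 occur verbatim in the Ywhaq mRNA. For Ywhaq-ps1, 0 of 561 occur in the Sfn mRNA. How much of the Cdk5rap2 value comes from reads that match Ywhaq is therefore not known.

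**Figure D5:**
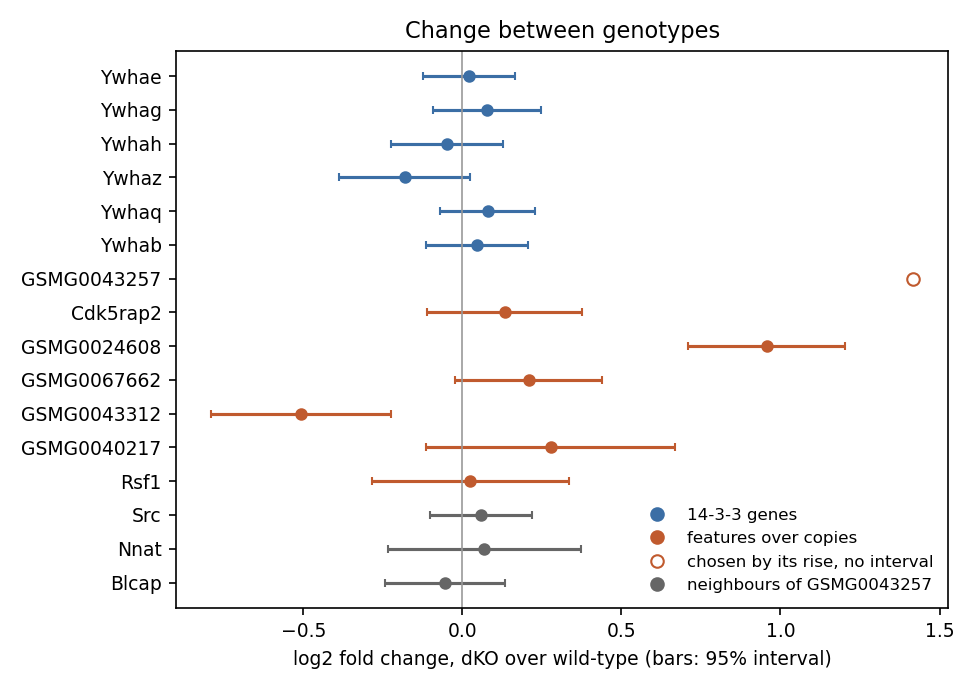
Log2 fold change (dKO over wild-type) with 95% intervals from limma for the 6 family genes (blue), the features over pseudogenes (orange) and the neighbours of GSMG0043257 (grey), with GSMG0043257 itself as an open circle without an interval because it was chosen by this change. The intervals of the 6 family genes all include 0, those of GSMG0024608 (0.71 to 1.20) and GSMG0043312 (-0.79 to -0.22) do not, and of the features drawn with an interval only GSMG0024608 passed the adjusted threshold.

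Genes that act with the 14-3-3 proteins were described through 4 lists, of which 3 hold clients and 1 holds kinases that phosphorylate their binding sites. Of 66 listed genes 65 were tested and 0 passed an adjusted p of 0.05. At an unadjusted p under 0.05, 7 of 65 had higher and 0 lower values in dKO libraries (4.92% of all features tested were higher and 6.58% lower at this threshold). The median log2 change was 0.08 over the 65 genes and 0.00 over all features tested. Of the 65 changes 49 were above and 16 below 0, beside 9603 above and 9367 below over all features tested. The comparison is not a test of the lists.

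Among the 13 kinase signalling clients the median log2 change was 0.07 and 0 had an unadjusted p under 0.05. The smallest p were those of Braf, a RAF kinase bound by 14-3-3 proteins (log2 change 0.22, SE 0.12), and Irs1, an insulin receptor substrate (0.29, SE 0.16). Both had a limma adjusted p of 0.504. The 18 transcription and cell cycle clients had a median of 0.16 and, against 11.5% of all features tested, 5 had an unadjusted p under 0.05.

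Of these, Hdac9, a class IIa histone deacetylase that 14-3-3 proteins keep out of the nucleus, had 802, 753 and 817 normalized counts in wild-type libraries and 1052, 1020 and 960 in dKO libraries. Its groups did not overlap (log2 change 0.35, SE 0.09, limma adjusted p = 0.277). Cdkn1b, the cell cycle inhibitor p27, had 9031, 9265 and 8607 in wild-type and 11102, 10152 and 10409 in dKO libraries. Its groups did not overlap either (log2 change 0.23, SE 0.07, limma adjusted p = 0.337). Of the 18 clients in this list 4 were without overlap with dKO higher and 0 with dKO lower. The shares over all features tested were 7.89% and 8.48%.

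The 17 cytoskeleton and migration clients had a median log2 change of 0.11, with 1 unadjusted p under 0.05. This was Arhgef7, a guanine nucleotide exchange factor, with a log2 change of 0.18 (SE 0.07, limma adjusted p = 0.394), and Kif1c, a kinesin, was next with -0.20 (SE 0.11, limma adjusted p = 0.509). The 17 kinases tested had a median of -0.01, again with 1 unadjusted p under 0.05. Without overlap between the genotypes were 2 kinases with dKO higher and 2 with dKO lower (7.89% and 8.48% of all features tested). The 2 with dKO higher were the serine/threonine kinases Pim1 and Akt2. Pim1 had a log2 change of 0.43 (SE 0.16, limma adjusted p = 0.385) and Akt2 one of 0.18 (SE 0.09, limma adjusted p = 0.484). Single libraries weighed on some of these values, as the log2 change of Akt2 was 0.09 without wild-type 1, that of Kif1c -0.10 without wild-type 3 and that of Irs1 0.16 without dKO 1.

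The genes whose pattern over the 6 libraries was most like that of Ywhaz were Ttc7b (r = 0.994), Adrbk2 (0.983), Pnmal1 (0.978), Cacul1 (0.977) and Eef2k (0.977), by Pearson's r of log2(normalized count + 1) among 12732 genes with a symbol and a mean of at least 50. For GSMG0043257 they were Rsl24d1 (0.989), Spdl1 (0.985), Itfg2 (0.983), Mxd1 (0.978) and 9130019O22Rik (0.977). These are the highest of many values over 6 points that share their libraries, and are given as a description. The 5 genes most like Ywhaz had log2 changes of -0.20 to -0.05, and the 5 most like GSMG0043257 of 0.25 to 0.47. These directions follow from the choice by likeness, and GSMG0043257 was itself chosen for its rise, so they are not a further result.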

How the data were processed

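Cortex RNA was sequenced from 3 wild-type and 3 dKO libraries, which were assigned to a genotype by their labels. The authors deposited 1 signal value per feature, the number of reads scaled by a factor for the library, made by GenoSplice on the FAST database. The submitters' processing notes name STAR 2.7.5a, SAMtools, Picard, FastQC, DESeq2 and mm10. The counting program, its strand setting and its treatment of reads with several matches are not given in the sources used here. The value of 1 read (0.877 to 1.16 normalized counts) was recovered from each library, and 100.0% of the values were whole multiples of it within 0.01. Features without a symbol held 8.48% to 9.62% of the signal of a library and were kept.

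Genotypes were compared with limma 3.58.1 (with trend and robust set, under R 4.3.3). The values were log2(normalized count + 1) for all features averaging 10 or more across the 6 libraries, with Benjamini-Hochberg adjustment over all of them. The recovered reads were also tested with DESeq2 1.42.0 and the quasi-likelihood test of edgeR 4.0.16. Other pseudocounts, filters and scalings, the replicate number as a block and each library left out in turn were the remaining alternatives. The fit was tested on simulated counts. Copies were found by aligning 14-3-3 mRNAs with BLAST+ 2.17.0 to the pseudogene transcripts of GENCODE M21. A search of the genome had been planned, but no genome sequence was used here, so a copy outside that annotation would be missed, and a feature was taken to hold a copy where their intervals overlap. Merged exon lengths came from the same annotation.

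Named genes were the 6 family genes, Sfn, GSMG0043257, the targeted genes, tested features over other 14-3-3 pseudogenes, named features within 100 kb of GSMG0043257, the 2 genes of smallest p in each client or kinase list, and the 5 genes most correlated with Ywhaz and with GSMG0043257. The members and lists were chosen with earlier results of these data known. Marker lists for microglia, interneurons and erythroid cells were also measured, and 0 of their genes were called. Of the client and kinase lists, Lats2 was not matched to a feature.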

Additional observations from a re-analysis of the deposited data

How the results depend on the processing

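With limma 19 features were called over the whole table, 7 with trend and robust switched off, 202 by DESeq2, 9 with the replicate number as a block and, in a setting chosen after seeing the data, 5 without wild-type 1 and dKO 1. Leaving out each library in turn gave 7 (without dKO 3) to 46 (without dKO 1) calls, with 8 without wild-type 1, 32 without wild-type 2, 10 without wild-type 3 and 13 without dKO 2. Of the other pseudogene features 1 was called, with 0 without trend and robust options, 2 with DESeq2, 0 with the replicate block, 0 without wild-type 1 and dKO 1, and 1 to 2 with each library left out. The block cost GSMG0024608 its call (adjusted p = 0.0597). Deviations of same-numbered libraries correlated at 0.098, -0.228 and -0.079, so the numbers did not pair the libraries. The 6 family genes and the client and kinase lists had 0 calls under each setting tried. In limma without a filter, and also under quantile normalization, 1 of the 6 family genes had an unadjusted p under 0.05. The log2 change of Ywhaz under quantile normalization was -0.256 (SE 0.0848, limma adjusted p = 0.391). Quantile normalization turned the sign of Ywhab (-0.0365), Ywhaq (-0.0105), Ywhag (-0.0116), Ywhae (-0.0390), Src (-0.00148) and Nnat (-0.0122), and leaving out wild-type 1 and dKO 1 that of Rsf1 (-0.0118). With each library left out, the log2 change lay between -0.0650 and 0.230 for Nnat, -0.0903 and 0.127 for Rsf1 and -0.100 and 0.00796 for Blcap. The causes of these changes were not tested. With 3 libraries per genotype the intervals of the family genes span about 0.3 to 0.4 on the log2 scale, and differences within them were not detectable.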

Other observations

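Counts per kilobase of the listed interval differed widely between the short features over copies and the genes they resemble. In wild-type libraries GSMG0024608, whose interval of 172 bases is little longer than a read of 150 bases, held 18745 normalized counts per kilobase of interval, beside 4195 per kilobase of merged exons for Ywhaz. GSMG0043312, at 177 bases, held 6899 per kilobase of interval, beside 4114 for Ywhaq. GSMG0067662, whose 1902 bases contain GSMG0024608, held 410 per kilobase. A read is longer relative to these short intervals than to a gene, so densities on the interval scale and on the merged exon scale are not directly comparable.

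The normalized count of GSMG0043257 was 40.7 ± 3.41% of that of GSMG0024608 in wild-type and 56.1 ± 6.69% in dKO libraries (n = 3 each). The libraries of the genotypes did not overlap in this percentage, which ran from 37.7% to 44.4% and from 51.1% to 63.7%. As GSMG0043257 was chosen by its rise, this is given without a test.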
